A study of Mus musculus with 6 samples.

Results

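Wnt ligands, their receptors and the secreted proteins that restrain them were followed through the nuclei of 6 mouse tumors. The group holds every gene in the deposited gene list whose symbol is Wnt, Fzd, Dkk, Sfrp or Rspo followed by a number, together with Lgr4, Lgr5, Lgr6, Lrp5, Lrp6, Ror1, Ror2, Axin2, Notum, Wif1, Znrf3 and Rnf43. This rule found 53 members among 22623 genes, and it used symbols and no measured value. The members were 19 Wnt ligands, 10 Frizzled receptors, 4 co-receptors, 7 R-spondins or Lgr receptors, 2 receptor ubiquitin ligases, 10 secreted inhibitors and the target gene Axin2. In 17514 kept nuclei they had 95122 UMIs, where a UMI is a molecular tag that counts 1 captured RNA molecule. Of the members, 22 had at least 200 UMIs, 26 had from 1 to 199, and Dkk1, Fzd10, Wnt7a, Wnt8a and Wnt9b had 0 UMIs among 79703016, which allows a level of up to 0.0376 CPM, counts scaled to a library total of 1000000. The count of 200 was the limit for naming a member with its values, with Wnt2b at 234 UMIs just inside and Fzd4 at 169 just outside.

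All mice carried floxed MCT2 alleles (MCT2 loxP/loxP) together with a tamoxifen-inducible Cre transgene (mCre-Tg), and MCT2 is the monocarboxylate transporter encoded by Slc16a7. Mice of the KO group received tamoxifen for 5 days at 8 weeks of age and mice of the CO group received vehicle, so drug and deletion went together and no Cre-negative tamoxifen group was used. TC1 cells, a mouse lung epithelial tumor line that was not itself deleted, were injected under the skin of the flank 2 days later, and tumors were taken after 24 days of growth, with 3 libraries in each group. GEO's tissue label reads lung although the material was a flank tumor, and no label states whether 1 library was 1 animal. If it was not, p-values measure only the spread between these libraries.

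Slc16a7 was at 8.58, 11.6 and 21.0 CPM in the 3 libraries labelled CO and at 15.6, 6.92 and 31.5 CPM in the 3 labelled KO, over all nuclei. The groups overlapped, so the counted reads did not separate the labels, and whether those reads fall in the deleted part of the gene is not given in the sources used here. CO and KO therefore name the labels in everything that follows, directions included.

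Libraries had 13252572 to 22057084 UMIs before filtering, and 1763 to 4587 nuclei were kept per library with medians of 1094 to 4873.5 UMIs. Any 2 libraries shared 19 to 25 cell barcodes. Nuclei were grouped by clustering without the Wnt members and other Wnt pathway genes, and clusters were named from marker lists. They comprised 9004 mesenchymal-like, 6060 macrophage-like, 787 T/NK-like, 186 endothelial-like, 153 dendritic-like, 111 host fibroblast-like, 67 adipocyte-like, 59 skeletal muscle-like and 57 plasmacytoid dendritic-like nuclei, and 1030 stayed unnamed. Most listed epithelial genes were nearly absent, with Epcam at 16 UMIs, Krt8 at 14, Krt18 at 2 and Krt5 and Krt14 at 0 in all nuclei. The other listed ones, Cdh1 and Trp63, had 296 and 60 UMIs (3.71 and 0.753 CPM). Mesenchymal-like is therefore a name by marker genes and does not say whether a nucleus came from the graft or the host.

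A Wnt protein is a secreted ligand that binds a Frizzled receptor at the cell surface. With the co-receptors Lrp5 or Lrp6 this leads to stabilised beta-catenin and transcription of targets such as Axin2, whereas Ror1 and Ror2 take part in signalling that does not use beta-catenin. Dkk, Sfrp, Wif1 and Notum are secreted and dampen the signal, by holding Lrp co-receptors, by holding the ligand or by removing its lipid. Znrf3 and Rnf43 are ubiquitin ligases that clear Frizzled from the surface, and R-spondins, through Lgr receptors, block these ligases.

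By UMIs, which rise with gene length in nuclear RNA, most Wnt transcripts of these tumors came from co-receptors and inhibitors. Co-receptors had 33644 UMIs (35.4% of all member UMIs), secreted inhibitors 32929 (34.6%), receptor ubiquitin ligases 10775, Frizzled receptors 9821, ligands 4594 (4.83%), R-spondins and Lgr receptors 3272 and Axin2 87. Dkk2 alone had 31110 UMIs and Ror2 18560, followed by Znrf3 with 10493, Lrp6 with 10101 and Lrp5 with 4093. Because nuclear RNA holds introns and long genes offer more of them to the assay, levels of different genes are compared per kb of gene span, from the first to the last annotated base. Per kb the order was different, and on that scale the ligand Wnt5a stood above each co-receptor. Whether counts grew in proportion to span was not tested, and where they did not, dividing by span favours short genes. Fzd2 had 446 UMIs per kb, Fzd1 363, Dkk2 327, Notum 217, Fzd7 182, Wnt5a 117 and Ror2 105, whereas Lrp6 had 83.8, Lrp5 40.2 and Ror1 2.55. Fzd1, Fzd2, Fzd7 and Fzd8 have a single annotated exon, and their spans are 3.66 to 5.97 kb.

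Mesenchymal-like nuclei held 82.5% of member UMIs, against 76.9% of all UMIs. By library the share of member UMIs was 86.2, 81.3 and 73.4% (CO) against 82.4, 92.0 and 70.8% (KO). The means were 80.3% ± 6.5 and 81.7% ± 10.6 (SD, n = 3 each), and the groups overlapped. The share of all UMIs in this class was 81.5, 75.9 and 66.0% (CO) against 75.6, 89.7 and 63.9% (KO), so the members' share was the larger in each of the 6 libraries.

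Part of what is read in a nucleus can come from RNA of other cells. A yardstick for such carry-over was taken from the 18 mesenchymal marker genes. Their summed CPM in macrophage-like nuclei was 12.1% of that in mesenchymal-like nuclei over all libraries, with 9.79, 7.24 and 9.90% (CO) against 8.27, 15.6 and 18.0% (KO). In T/NK-like nuclei it was 68.1%, and in endothelial-like and host fibroblast-like nuclei 88.9% each. This carry-over percentage can also include mixed or misassigned nuclei and expression of the listed genes by the class itself, which were not told apart. By their own marker counts, 859 of 6060 macrophage-like and 224 of 787 T/NK-like nuclei scored as mesenchymal-like. So did 125 of 186 endothelial-like and 55 of 111 host fibroblast-like nuclei, and the host fibroblast-like cluster detected 16 of the 18 genes. A member whose level outside mesenchymal-like nuclei stays at or below that percentage is not distinguished from carried-over RNA. Classes come from clusters of these same nuclei, so their levels are described and not tested.

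**Figure D1:**
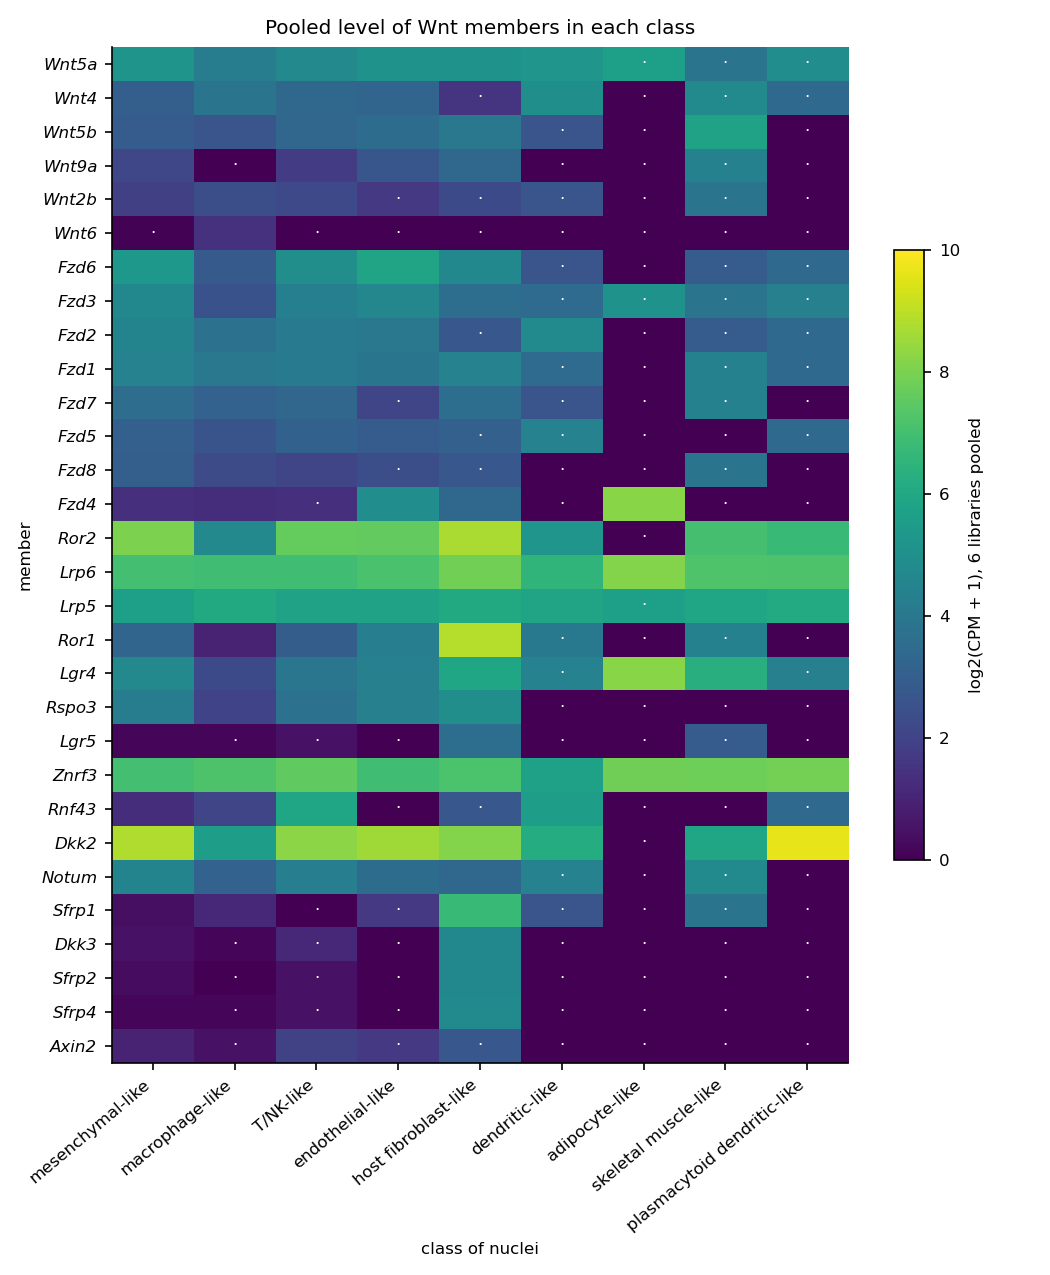
Rows are Wnt members, columns are the named classes of nuclei, and colour is log2(CPM + 1) with the 6 libraries pooled; a dot marks fewer than 5 UMIs. Dkk2, Ror2, Lrp6 and Znrf3 stand out in most classes, Ror1 and the Sfrp genes in host fibroblast-like nuclei, Fzd4 and Lgr4 in adipocyte-like nuclei, and 67 of the 81 Dkk2 UMIs in plasmacytoid dendritic-like nuclei came from 1 nucleus.

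Among ligands, Wnt5a, which acts mainly through Ror receptors without beta-catenin, was the most counted. It was at 35.5 CPM in mesenchymal-like nuclei and 17.9 CPM in macrophage-like nuclei, which is 50.6% of the former and above the carry-over percentage in 6 of 6 libraries. Its levels in mesenchymal-like nuclei were 38.7, 40.3 and 40.8 CPM (CO) against 36.4, 28.7 and 30.4 CPM (KO). Wnt4 had the reverse order. It was at 13.3 CPM in macrophage-like nuclei (101 UMIs in 98 nuclei) and 7.13 CPM in mesenchymal-like nuclei (437 UMIs), and it was the higher in macrophage-like nuclei in 6 of 6 libraries. Wnt2b, on fewer UMIs, was also the higher in macrophage-like nuclei, at 4.36 CPM (33 UMIs) against 2.71 CPM (166 UMIs) and in 5 of 6 libraries. Wnt6 was sparse, with 13 of its 16 UMIs in macrophage-like nuclei, 9 of them from KO replicate 1. Wnt16 had 7 of its 8 UMIs in host fibroblast-like nuclei, 6 of them in KO replicate 2.

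Frizzled receptors were spread over classes at low levels. In mesenchymal-like nuclei Fzd6 was at 39.1 CPM, Fzd3 at 24.6, Fzd2 at 21.8 and Fzd1 at 20.4. In macrophage-like nuclei Fzd2 was at 12.7 CPM and Fzd1 at 15.2, which are 58.0 and 74.4% of their mesenchymal-like levels and above carry-over in 6 of 6 libraries each. Fzd4, a receptor with a known role in vessels, had a different distribution. It was at 295 CPM in adipocyte-like nuclei and 29.0 CPM in endothelial-like nuclei, against 1.53 CPM in mesenchymal-like nuclei. Both exceeded the mesenchymal-like level in 6 of 6 libraries, although on 18 and 27 UMIs.

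The beta-catenin co-receptors Lrp5 and Lrp6 were present at similar levels in the major classes. Lrp6 was at 127 CPM in mesenchymal-like, 121 in macrophage-like and 120 in T/NK-like nuclei. Lrp5 was at 49.6, 67.0 and 53.3 CPM in the same order, and its macrophage-like level was the higher in 6 of 6 libraries. Ror2 and Ror1 were not. Ror2 was at 261 CPM in mesenchymal-like nuclei and 24.9 CPM in macrophage-like nuclei, 9.57% of the former, above the carry-over percentage in 1 of 6 libraries. Ror1 was at 8.70 CPM in mesenchymal-like nuclei but at 469 CPM in host fibroblast-like nuclei, with 252 UMIs in 59 of 111 nuclei. Per library, host fibroblast-like Ror1 was at 1452, 281 and 479 CPM (CO) against 87.0, 260 and 824 CPM (KO). Those of CO replicate 1 and KO replicate 1 rest on 2 and 7 nuclei with 5 and 1 UMIs, and all 6 exceeded the mesenchymal-like level of the same library, which was 3.32 to 25.8 CPM.

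R-spondin and Lgr transcripts were few. Lgr4, a receptor for R-spondins, was at 25.2 CPM in mesenchymal-like nuclei, 57.7 CPM in host fibroblast-like nuclei and 295 CPM in adipocyte-like nuclei (18 UMIs in 17 of 67 nuclei). Rspo3 was at 17.5 CPM in mesenchymal-like nuclei and is described by cluster in a later paragraph. Lgr5 had 22 UMIs, 6 of them in host fibroblast-like nuclei, and it overlaps A930009A15Rik on the other strand, so reads of the pair may not be told apart.

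The ligases Znrf3 and Rnf43 differed in breadth, and both had their highest level of the 3 largest classes in T/NK-like nuclei. Znrf3 was at 128 CPM in mesenchymal-like, 148 in macrophage-like and 187 in T/NK-like nuclei, and in 6 of 6 libraries the T/NK-like level was the highest of the 3. Rnf43 was at 1.47 CPM in mesenchymal-like and 3.30 CPM in macrophage-like nuclei but at 58.5 CPM in T/NK-like nuclei, where 104 of 787 nuclei held its 146 UMIs. T/NK-like Rnf43 was at 54.7, 83.7 and 19.8 CPM (CO) against 137, 78.1 and 32.0 CPM (KO), and each value was above the highest mesenchymal-like one, 1.82 CPM. When each nucleus was instead assigned to a class by its own marker counts, 396 nuclei were T/NK-like. Rnf43 was then at 151 CPM and Dkk2 at 35.5 CPM in them, against 309 CPM for Dkk2 in the T/NK-like cluster.

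**Figure D2:**
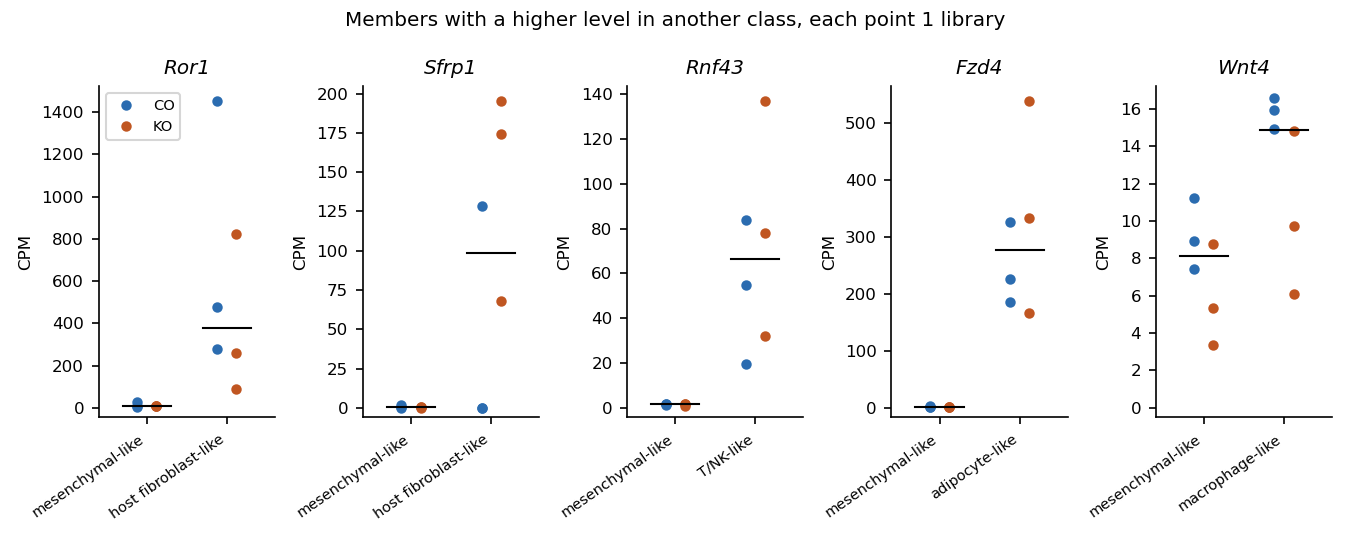
Each point is the CPM of 1 library (CO or KO) in mesenchymal-like nuclei and in 1 other class, and the bar is the median of 6 libraries. Rnf43 in T/NK-like nuclei, at 19.8 to 137 CPM, and Ror1 in host fibroblast-like nuclei, at 87.0 to 1452 CPM, lie above every mesenchymal-like value.

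Secreted inhibitors split into a mesenchymal-like pair and a host fibroblast-like set. Dkk2, which binds Lrp5 and Lrp6, was at 444 CPM in mesenchymal-like nuclei and 46.7 CPM in macrophage-like nuclei, 10.5% of the former and above the carry-over percentage in 1 of 6 libraries. Notum, the enzyme that removes the lipid from Wnt, was at 22.0 CPM in mesenchymal-like and 7.79 CPM in macrophage-like nuclei, 35.4% of the former and above carry-over in 6 of 6 libraries. Sfrp1, Sfrp2, Sfrp4 and Dkk3 each had less than 1 CPM in mesenchymal-like nuclei and were at 108, 24.2, 26.1 and 24.2 CPM in host fibroblast-like nuclei. Over all nuclei they had only 101, 33, 23 and 45 UMIs, so the levels of the last 3 rest on few counts. Of these UMIs 20.8, 48.5, 26.1 and 55.6% were in mesenchymal-like nuclei, the far larger class. Sfrp1 over all nuclei had 1, 3 and 29 UMIs (CO) against 4, 20 and 44 UMIs (KO), while host fibroblast-like nuclei numbered 2, 9 and 26 (CO) against 7, 33 and 34 (KO). Libraries with many of these nuclei were the ones with many Sfrp1 UMIs, and fewer cells and less RNA per cell cannot be told apart in such a sum. Wif1, Sfrp5 and Dkk4 had 7, 3 and 1 UMIs.

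Promoters are shown for the 2 most counted members, Dkk2 and Ror2, for Ror1, which set host fibroblast-like nuclei apart, and for Axin2, the target gene. Of 53 members, 34 had a promoter in the RefSeq set of GRCm38.p6, 38 promoters in all. Each run below is the 250 bases upstream of the annotated start, 5′ to 3′ on the strand of the gene, and capitals mark 3 motifs found by letter match on both strands, the GC box GGGCGG, the TATA box TATAAA and the TCF/LEF core CTTTGAT. These motifs do not overlap each other in the 4 runs.
Dkk2, chr3:132085042-132085291, plus strand: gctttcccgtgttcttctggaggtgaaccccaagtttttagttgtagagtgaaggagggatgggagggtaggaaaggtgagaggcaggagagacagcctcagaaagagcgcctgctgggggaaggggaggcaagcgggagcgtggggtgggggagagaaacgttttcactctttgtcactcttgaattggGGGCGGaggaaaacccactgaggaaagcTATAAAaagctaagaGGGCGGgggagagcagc
Ror2, chr13:53286125-53286374, minus strand: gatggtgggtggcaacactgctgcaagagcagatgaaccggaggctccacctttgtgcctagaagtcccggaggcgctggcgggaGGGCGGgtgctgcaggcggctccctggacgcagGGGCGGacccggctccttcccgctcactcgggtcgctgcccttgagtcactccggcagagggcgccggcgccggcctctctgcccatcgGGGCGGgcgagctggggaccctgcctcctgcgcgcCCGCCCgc
Ror1, chr4:100095541-100095790, plus strand: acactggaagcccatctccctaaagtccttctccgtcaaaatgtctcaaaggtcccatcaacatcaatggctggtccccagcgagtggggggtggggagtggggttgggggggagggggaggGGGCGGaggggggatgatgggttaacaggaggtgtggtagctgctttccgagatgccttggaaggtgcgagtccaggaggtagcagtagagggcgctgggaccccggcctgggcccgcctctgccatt
Axin2, chr11:108920099-108920348, plus strand: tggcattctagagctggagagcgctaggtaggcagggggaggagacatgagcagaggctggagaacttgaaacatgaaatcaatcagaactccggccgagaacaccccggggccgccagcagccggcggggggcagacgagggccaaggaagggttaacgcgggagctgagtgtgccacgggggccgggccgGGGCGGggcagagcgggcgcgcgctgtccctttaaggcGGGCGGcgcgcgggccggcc
Dkk2 held 2 GC boxes and 1 TATA box, Ror2 held 4 GC boxes, Ror1 held 1 and Axin2 held 2, and none of the 4 windows held the letters of the TCF/LEF core. A GC box was found in 26 of the 38 member promoters (25 of the 34 members), against 32.7% of all 32851 promoters. A TATA box was found in 5 of the 38 (12.4% of all promoters) and a TCF/LEF core in 2, of Wnt5b and Wnt11 (3.21%). The median G and C content of all promoters was 52.4%, against 55.6, 73.2, 62.4 and 69.2% in the 4 runs, in the order shown. Its part in the GC box counts was not tested. A match is a description of letters and does not show a binding site.

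Within the mesenchymal-like class the members differed between its 7 clusters. Rspo3, a secreted enhancer of Wnt signalling, was at 68.1 CPM in cluster 4, which was led by Frmd5, Gpm6b and Pde10a, and at 4.26 to 16.7 CPM in the other 6. In cluster 4 it was at 42.3, 55.1 and 151 CPM (CO) against 53.9, 71.6 and 31.4 CPM (KO), and each library had its highest Rspo3 level there. Ror2 (352 CPM), Ror1 (18.9 CPM) and Fzd1 (45.8 CPM) also had their highest pooled level in cluster 4. Dkk2 and Notum had theirs in cluster 7, led by Msln, F2rl1 and Crabp1, with 625 and 36.5 CPM, where Ror2 was at 163 CPM. Cluster 12, in which the stress-response genes Atf3 and Ppp1r15a led, had the lowest Dkk2 and Ror2, at 210 and 115 CPM, and the highest Wnt9a, at 15.7 CPM on 24 UMIs against 2.04 to 3.93 elsewhere. Dkk2 was also the more unevenly spread of the 2 leading members. The tenth of mesenchymal-like nuclei with the most Dkk2 UMIs held 57.6 to 81.5% of them by library, whereas the same share for Ror2, read in the same nuclei, was 37.0 to 52.4%.

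**Figure D3:**
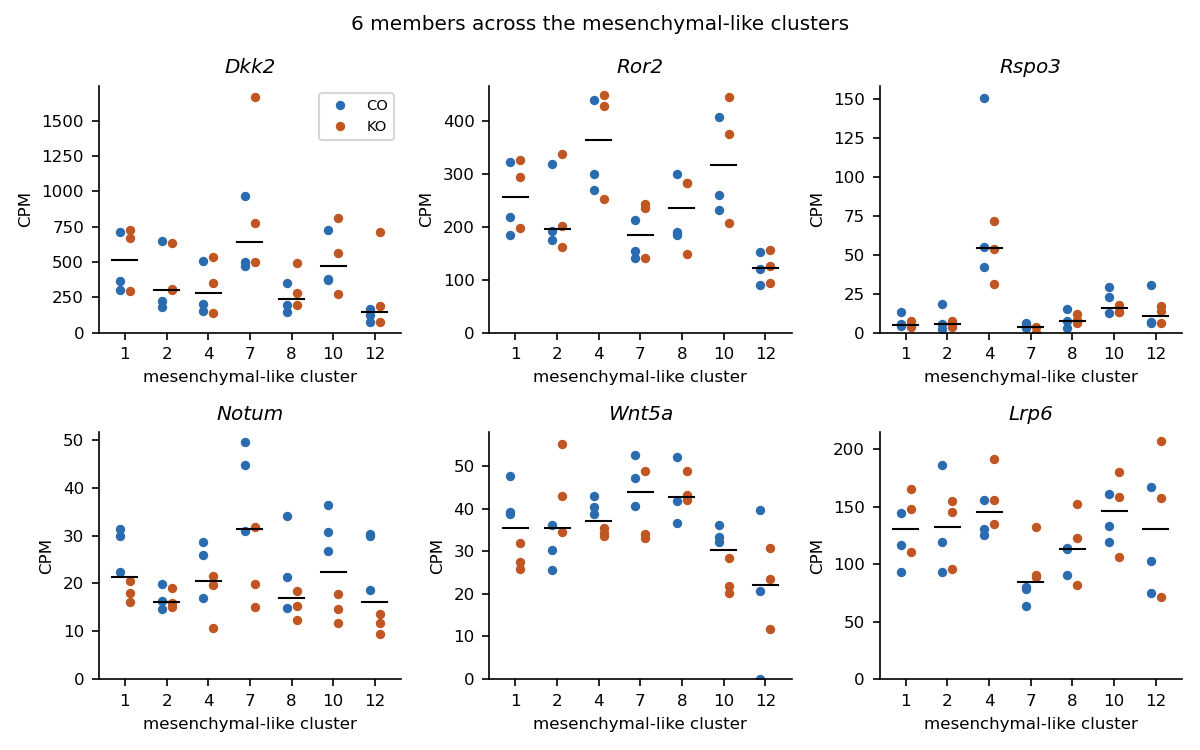
Each point is the CPM of 1 library (CO or KO) in 1 of the 7 mesenchymal-like clusters, and the bar is the median of 6 libraries. Rspo3 is highest in cluster 4 in every library, while Dkk2 and Notum have their highest medians in cluster 7.

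The comparison of KO with CO asks whether Wnt transcripts differed between tumors of the mice labelled KO and CO. Counts were summed per library and tested with edgeR's quasi-likelihood test over all genes, and a gene was called at an absolute log2 fold change of at least 0.58 with an adjusted p of at most 0.05. By this rule 0 of 28 members tested in all nuclei were called, where 0% of 13662 genes were called. The same was true of 0 of 27 members in mesenchymal-like (0% of 12832 genes), 0 of 10 in macrophage-like (0% of 10012) and 0 of 8 in T/NK-like nuclei (0% of 7985), and of 0 of 22 for the difference in change between mesenchymal-like and macrophage-like nuclei (0% of 12285). At an unadjusted p under 0.05 there were 4, 6, 0, 1 and 3 members in these 5 tests, beside 4.84, 7.01, 5.62, 6.83 and 7.75% of all genes. DESeq2, run as an alternative, called 0 members in each of the 5, beside 0.0878, 0.21, 0.0499, 0.1 and 0.0488% of all genes. The biological coefficient of variation, edgeR's measure of spread between libraries of a group, was 25.6 to 30.3%, and in simulated counts of these sums edgeR called 6 to 10% of 2-fold changes and 74 to 94% of 4-fold changes. Changes near 2-fold were therefore not detectable in most cases.

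Several members were nevertheless lower in each library labelled KO than in each labelled CO. In mesenchymal-like nuclei this held for 5 of 27 members, Notum, Wnt5a, Fzd8, Axin2 and Rspo1, and for 5.62% of all genes tested. The reverse held for 1 member, Znrf3, and for 7.16% of genes. Over all nuclei 6 of 28 members were lower without overlap, the same 5 and Wnt2b, against 5.13% of genes, and 0 were higher, against 5.76%. With stricter limits on nuclei (at least 500 detected genes and under 5% mitochondrial counts) the all-nuclei estimates of Fzd8 and Wnt5a turned to 0.065 and 0.18 on the log2 scale. Levels from here on are CPM scaled by TMM, edgeR's library scaling. Comparisons by cluster use unscaled CPM. Clusters divide the nuclei of the same 6 libraries, so their agreement is not replication. The share of all genes without overlap was not computed by cluster.

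Notum was at 31.4, 25.7 and 24.6 CPM (CO) against 17.4, 15.4 and 19.9 CPM (KO) in mesenchymal-like nuclei. The CO libraries lay between 24.6 and 31.4 CPM and the KO libraries did not reach them. The fitted log2 ratio of KO to CO was -0.64 (SE 0.19), and its adjusted p by edgeR was 0.567. The KO mean was below the CO mean in 7 of 7 mesenchymal-like clusters, and the groups did not overlap in 3 of them (clusters 1, 10 and 12). In macrophage-like nuclei the Notum estimate was positive instead, at 0.31 to 0.71 over the 12 fits that tested it. There the KO mean was below the CO mean in 1 of 3 clusters.

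Wnt5a was at 38.4, 39.6 and 39.1 CPM (CO) against 35.9, 31.0 and 30.7 CPM (KO). The CO libraries lay between 38.4 and 39.6 CPM, and the estimate of -0.26 (SE 0.15) had an adjusted p of 0.567 by edgeR. The KO mean was below the CO mean in 4 of 7 mesenchymal-like clusters, and the groups did not overlap in 3 of them (clusters 1, 4 and 10). In macrophage-like nuclei the Wnt5a estimate was positive instead, at 0.13 to 0.93 over 14 fits. There the KO mean was below the CO mean in 0 of 3 clusters. In T/NK-like nuclei Wnt5a was at 31.8, 34.8 and 39.7 CPM (CO) against 7.04, 15.04 and 14.9 CPM (KO), on 14, 16 and 21 against 2, 2 and 8 UMIs. There its log2 ratio was -1.49 (SE 0.44, edgeR adjusted p 0.618), and it was the 1 of 8 members whose groups did not overlap, where 7.13% of genes were lower and 6.88% higher without overlap. The mesenchymal marker percentage in T/NK-like nuclei was 73.3, 67.2 and 79.5% (CO) against 40.6, 59.7 and 69.3% (KO), and its part in the Wnt5a values was not tested.

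Fzd8 was at 8.38, 8.40 and 9.50 CPM (CO) against 6.33, 5.20 and 6.79 CPM (KO) (log2 fold change -0.52, SE 0.22). Axin2 was at 0.99, 2.08 and 1.30 CPM (CO) against 0.54, 0.63 and 0.85 CPM (KO) (-1.14, SE 0.45), on 12, 22 and 7 against 7, 8 and 6 UMIs. Rspo1 was at 0.99, 1.32 and 1.30 CPM (CO) against 0.70, 0.87 and 0.57 CPM (KO) (-0.71, SE 0.38). All 3 had an edgeR adjusted p of 0.567, and the counts behind Axin2 and Rspo1 are small. By mesenchymal-like cluster, the groups did not overlap in 0 of 7 for Fzd8 and in 1 of 7 for Axin2 (cluster 1).

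Znrf3 had the opposite direction, with 95.8, 107 and 106 CPM (CO) against 113, 189 and 152 CPM (KO). Its log2 ratio was 0.56 (SE 0.21, edgeR adjusted p 0.567), and the KO libraries did not overlap CO in 4 of 7 mesenchymal-like clusters. Fzd6 was at 29.997, 33.4 and 25.7 CPM (CO) against 49.7, 52.2 and 32.5 CPM (KO), where KO replicate 3 lay inside the CO range (0.59, SE 0.22). Fzd1 was at 19.9, 24.5 and 36.7 CPM (CO) against 16.2, 15.7 and 19.9 CPM (KO), with overlap (-0.64, SE 0.26). By cluster, its KO libraries lay below CO without overlap in 5 of 7 mesenchymal-like clusters (1, 4, 7, 10 and 12).

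The most counted members did not separate the groups. Dkk2 was at 321, 273 and 611 CPM (CO) against 273, 770 and 541 CPM (KO) in mesenchymal-like nuclei (0.40, SE 0.44, edgeR adjusted p 0.656). Ror2 was at 186, 218 and 342 CPM (CO) against 188, 382 and 321 CPM (KO) (0.26, SE 0.33, edgeR adjusted p 0.694). For both genes CO replicate 3 and KO replicates 2 and 3 were high and the other 3 libraries low. Lgr4 was high in the same 3, at 20.1, 17.6 and 35.4 CPM (CO) against 16.8, 39.1 and 29.3 CPM (KO). Lrp6 (0.33, SE 0.25) and Lrp5 (-0.08, SE 0.20) also overlapped, as did Fzd3 (0.20, SE 0.22), Fzd5 (-0.12, SE 0.24), Fzd7 (0.03, SE 0.20), Wnt5b (-0.27, SE 0.26), Wnt9a (-0.44, SE 0.32) and Rnf43 (-0.11, SE 0.37). Rspo3 (-0.84, SE 0.57) and Ror1 (-0.36, SE 0.66) had their highest level in CO replicate 3, with 52.5 CPM against 10.3 to 18.2 and 24.8 CPM against 3.29 to 10.1 in the other 5 libraries. Without it both estimates turned positive, to 0.13 and 0.80.

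**Figure D4:**
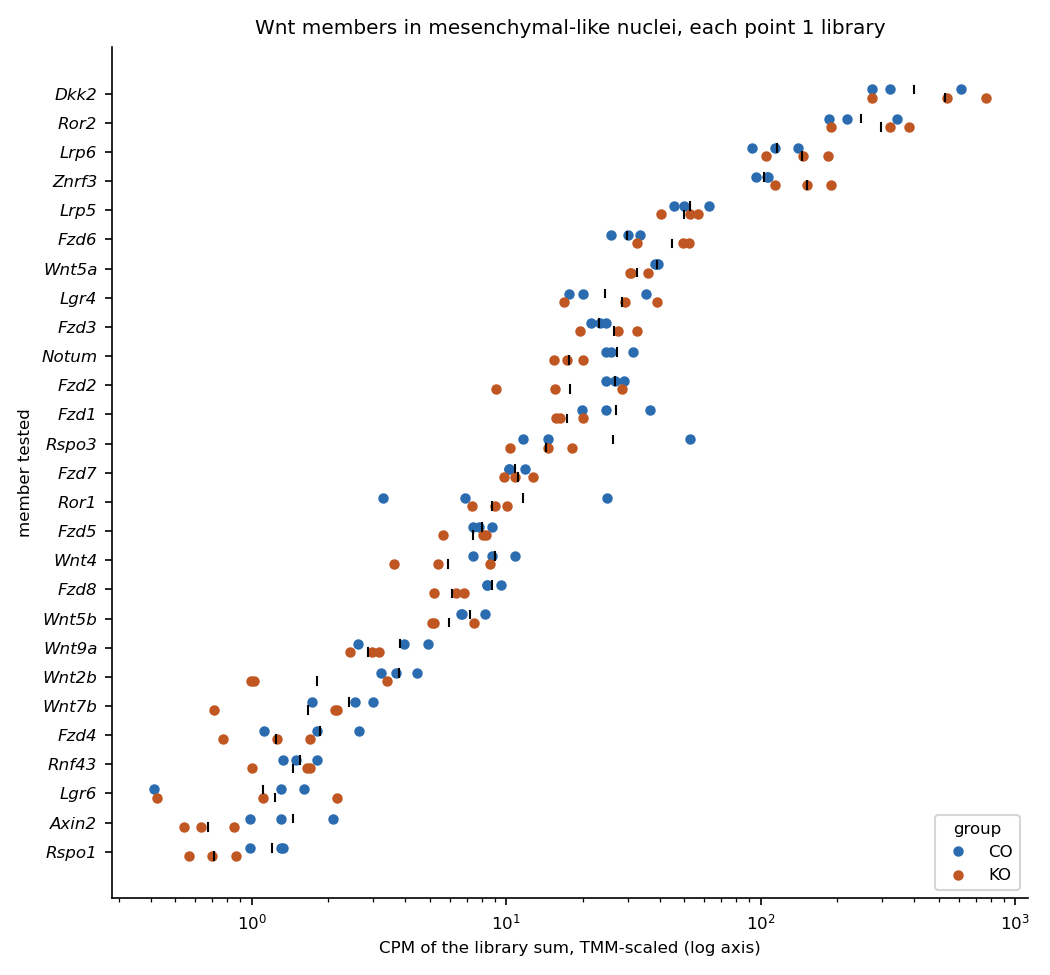
Each point is the TMM-scaled CPM (log axis) of 1 library in mesenchymal-like nuclei for 27 tested members, and the bar is the mean of CO or KO (n = 3 each). The KO points of Notum, Wnt5a, Fzd8, Axin2 and Rspo1 lie left of all CO points and those of Znrf3 lie right of them, while Dkk2 and Ror2 spread over both groups.

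Macrophage-like nuclei had 10 tested members. Wnt4 was the 1 member whose groups did not overlap, at 16.5, 14.8 and 16.4 CPM (CO) against 14.7, 6.28 and 9.97 CPM (KO) (log2 fold change -0.51, SE 0.36, edgeR adjusted p 0.787), where 5.83% of genes were lower and 5.78% higher without overlap. CO replicate 2 and KO replicate 1 were nearly equal. Dkk2 was at 43.0, 19.1 and 32.7 CPM (CO) against 16.4, 100 and 92.3 CPM (KO) (1.10, SE 0.60, edgeR adjusted p 0.785). Ror2 was at 15.6, 16.3 and 32.7 CPM (CO) against 9.27, 44.0 and 44.6 CPM (KO). The mesenchymal marker percentage, at 8.27, 15.6 and 18.0% in the same KO libraries, was also low in KO replicate 1 and high in KO replicates 2 and 3, and its part in these values was not tested.

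Of the removals of single libraries, that of KO replicate 1 changed which members were called. EdgeR then called 3 of 27 members in mesenchymal-like nuclei, where 19.5% of 12950 genes were called. They were Znrf3 (log2 fold change 0.73, adjusted p 0.0301), Fzd2 (-1.14, adjusted p 0.0317) and Wnt2b (-1.88, adjusted p 0.0295). In macrophage-like nuclei, where 19.6% of 10020 genes were called, it called 3 members. These were Dkk2 (1.63, adjusted p 0.00149), Ror2 (1.12, adjusted p 0.0216) and Fzd6 (2.25, adjusted p 0.0162). Fzd6 was too low to be tested with all 6 libraries, and with 1, 4 and 2 UMIs in CO it passed the low-count filter through KO replicates 2 and 3, with 5 and 20 UMIs. A gene that enters a test through the libraries where it is high had to differ there, so nothing is read from its call. Dkk2 and Ror2 are the members whose macrophage-like level stayed near the carry-over percentage. Wnt5a was called for the difference between the 2 classes (-1.40, adjusted p 0.0441; 2.53% of 12423 genes called), and 0 members were called in all nuclei (0% of 13806 genes) or T/NK-like nuclei (0.481% of 8530 genes). Against those shares of all genes, 3 of 27 members is fewer, 2 of the 10 macrophage-like members also tested with all libraries is close, and 1 of 22 is more but rests on 1 gene. With the 3 CO and 2 remaining KO libraries, 12 of 28 members did not overlap between groups in all nuclei, where 53.4% of genes did not. The counts were 12 of 27 in mesenchymal-like (58.3% of genes), 7 of 11 in macrophage-like (53.2%) and 4 of 10 in T/NK-like nuclei (39%).

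Fzd2 and Wnt2b show what this library contributes. In mesenchymal-like nuclei Fzd2 was at 26.8, 24.6 and 28.9 CPM (CO) against 28.6, 9.13 and 15.6 CPM (KO), with an estimate of -0.59 (SE 0.38) in the 6 libraries. Wnt2b was at 3.21, 3.68 and 4.47 CPM (CO) against 3.40, 1.02 and 0.99 CPM (KO), with -1.01 (SE 0.52). In both, KO replicate 1 lay inside the CO range and the other KO libraries lay below it. Wnt4, at 7.40, 8.78 and 10.8 CPM (CO) against 8.65, 3.62 and 5.38 CPM (KO), had the same shape.

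By role, the summed ligands of mesenchymal-like nuclei were at 65.0, 69.0 and 72.4 CPM (CO) against 62.9, 43.4 and 46.7 CPM (KO), unscaled. The groups did not overlap, with means of 68.8 ± 3.71 and 51.0 ± 10.4 CPM (SD, n = 3 each). The 2 receptor ligases were at 98.5, 110 and 112 CPM (CO) against 116, 176 and 152 CPM (KO), again without overlap. Frizzled receptors, co-receptors, inhibitors and the R-spondin and Lgr group overlapped. These sums were not tested, and they largely repeat members already described. Znrf3 had 10493 UMIs, 74.5% of them in mesenchymal-like nuclei, against 282 and 31.9% for Rnf43, which alone overlapped. Wnt5a had 2652 of the 4594 ligand UMIs over all nuclei.

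The direction of change followed the length of the gene across the whole transcriptome. In mesenchymal-like nuclei the median log2 fold change of all tested genes was -0.44 for spans under 10 kb, -0.12 for 10 to 30 kb, 0.15 for 30 to 100 kb and 0.32 for over 100 kb, and 12.8, 35.6, 70.2 and 80.8% of the genes in these classes were higher in KO. Members also had lower values when short. With all 6 libraries their medians, -0.59, -0.60, 0.04 and 0.26 in the same order, were below those of all genes in each class. Of the tested members 1 of 7 under 10 kb, 0 of 5 from 10 to 30 kb, 4 of 8 from 30 to 100 kb and 4 of 7 over 100 kb were higher in KO. Over all 27 members the median was -0.27, beside -0.02 for all tested genes, and without CO replicate 3 it was -0.13. Of the members whose groups did not overlap, Fzd8 spans 5.97 kb, Notum 7.39, Rspo1 22.7, Wnt5a 22.7, Axin2 30.4 and Znrf3 169 kb. Axin2, at -1.14 (SE 0.45), lay below the median of 0.15 of its span class. Its 30.4 kb is at the edge of that class, and the next shorter one had a median of -0.12.

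Genes over 100 kb gave 25.2, 27.6 and 34.8% of mesenchymal-like UMIs (CO) against 27.1, 42.6 and 38.5% (KO). The 3 libraries that were high for Dkk2 and Ror2, CO replicate 3 and KO replicates 2 and 3, were the highest here too. The same 3 libraries held the most host fibroblast-like nuclei. The part of this library difference in the members' fold changes was not tested. Without KO replicate 1 the medians of all genes were -0.81, -0.19, 0.24 and 0.47 in the order of span, a wider spread. Those of the members were then -0.56, -0.67, 0.24 and 0.055, above all genes under 10 kb and nearly equal from 30 to 100 kb. In macrophage-like nuclei, with all libraries, the members' medians were 0.13, 0.01, 1.10 and 0.22. All genes there had -0.25, -0.09, 0.10 and 0.25, so only members over 100 kb were below.

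**Figure D5:**
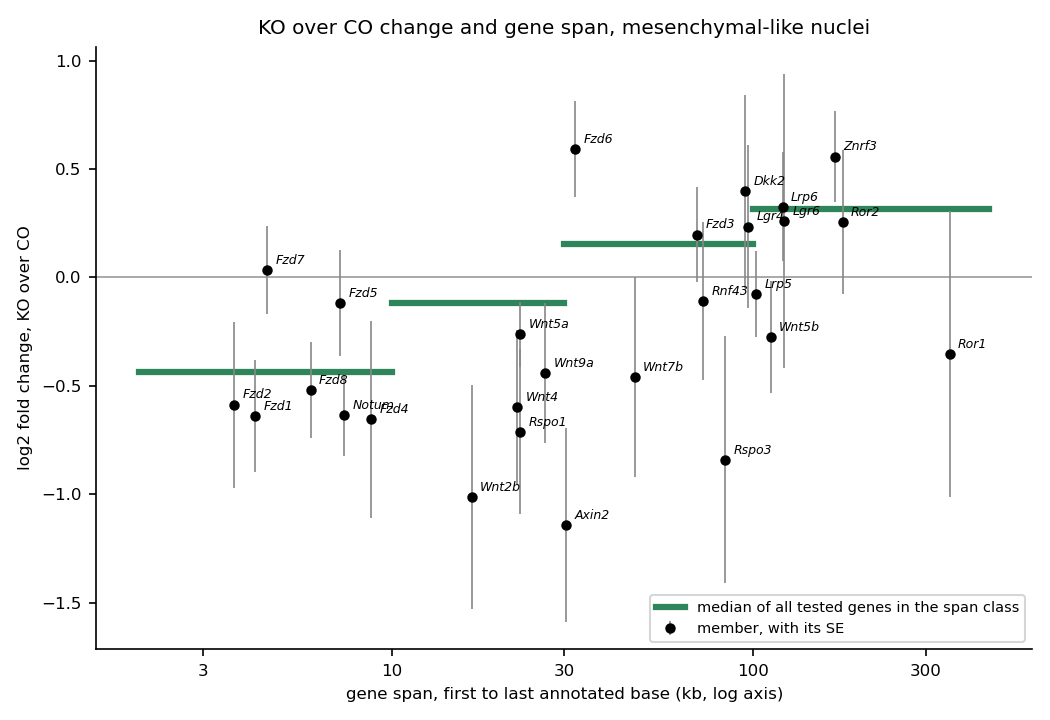
Points are the log2 fold changes (KO over CO) of 27 members in mesenchymal-like nuclei with their SE, against gene span in kb (log axis), and green bars are the medians of all tested genes in 4 span classes. The bars climb from -0.44 to 0.32, and members under 30 kb lie mostly below 0 with Fzd7, at 0.03, the exception.

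Genes of the wider pathway were taken from 5 lists of 76 symbols, for ligand secretion and extracellular modulators, the destruction complex and transducers, nuclear effectors, feedback and target genes, and planar cell polarity with other co-receptors. EdgeR called 0 of 64 tested in all nuclei, 0 of 61 in mesenchymal-like and 0 of 45 in macrophage-like nuclei, against the 0% given above. Of those tested 39, 39 and 33 had a positive log2 fold change, with medians of 0.10, 0.11 and 0.28. The medians of all tested genes were -0.023, -0.020 and -0.00057 in the same order. In T/NK-like nuclei 22 of 43 list genes were positive, with a median of 0.0087. Without KO replicate 2 the direction in all nuclei turned, with 26 positive, 38 negative and a median of -0.026. From the shortest to the longest span class, 12.8 to 80.8% of all genes were higher in KO in mesenchymal-like nuclei. In macrophage-like nuclei it was 24.9 to 78.2%. The part of gene span in the direction of the list genes was not tested. Wls, which carries Wnt proteins to the surface of the secreting cell, was at 440 CPM in mesenchymal-like nuclei, 202 in macrophage-like and 391 in host fibroblast-like nuclei. Tcf7l2, a nuclear effector, was at 382, 694 and 551 CPM in the same order.

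Gpc6, a heparan sulfate proteoglycan that can present ligands, had the largest difference in mesenchymal-like nuclei among the list genes whose groups did not overlap, which were Gpc6, Cd44 and Kremen1 on the higher side and Ctnnb1, Ctnnbip1, Csnk1g2 and Myc on the lower. These 7 of 61 were picked out after their values were seen, beside the 7.16 and 5.62% of all genes given above. Gpc6 was at 254, 270 and 253 CPM (CO) against 356, 621 and 544 CPM (KO), which gave a log2 ratio of 0.97 (SE 0.24, edgeR adjusted p 0.567). It was also a leading gene of mesenchymal-like clusters 1 and 10. The parts of cluster make-up and of gene span in its change were not tested. Cd44, a target gene and adhesion receptor, was at 284, 295 and 264 CPM (CO) against 366, 404 and 428 CPM (KO), also without overlap (0.51, SE 0.17). Without KO replicate 1, 3 of 61 list genes were called in mesenchymal-like nuclei (Gpc6, Tle1 and Tnks), where 19.5% of all genes were. In macrophage-like nuclei 9 of 46 were called, where 19.6% of all genes were, 8 of them higher in KO and Gpc3 lower.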

How the data were processed

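The deposited values were UMI counts per gene and nucleus from 10x single-nucleus libraries, made by the authors with Cell Ranger (version 3.0.2 per the labels) on the mouse genome build GRCm38. The labels also list Seurat 5.2.1. The matrices hold whole-number counts as deposited. The authors name SoupX for the removal of ambient RNA, and whole numbers alone do not show whether it had been applied to these files. Frozen tumors gave the nuclei, and some samples were washed more often, but which ones is not given in the sources used here.

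Limits of 100 to 7500 detected genes and less than 20% mitochondrial UMIs were applied, and nuclei with the highest doublet scores were then removed, in a share that grew with the number of barcodes, which left 17514 of 18865. Nuclei were clustered with scanpy 1.11.5 and leidenalg 0.10.2 after integration over libraries, without Wnt members and pathway genes, and clusters were named from marker lists. Counts were summed per library over all nuclei and over the classes that had 20 or more nuclei in each library. Sums were fitted with edgeR 4.0.16 (TMM scaling, low-count filter, quasi-likelihood test, Benjamini-Hochberg adjustment over all genes tested) on 3 CO and 3 KO libraries, in R 4.3.3. Alternatives were DESeq2 1.42.0 as the test or for scaling, no low-count filter, a replicate block, stricter nuclei (500 genes, 5% mitochondrial counts), doublets kept, classes by marker counts and each library left out. The fit was tested on simulated data.

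Members with at least 200 UMIs were named, as were members called in any fit or not overlapping between groups. Pathway genes were to be named where called, or up to 12 of the most counted. Those whose groups did not overlap in mesenchymal-like nuclei were added after their values were seen. Of the 9 called in macrophage-like nuclei without KO replicate 1, only Gpc3 was named. Members and lists were chosen with earlier results of these data known. Intervals and floors cover counting error only. Promoters came from RefSeq for GRCm38.p6, and gene spans from an annotation of GRCm38.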

Additional observations from a re-analysis of the deposited data

How the results depend on the processing

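No member was called by edgeR or DESeq2 under the other scaling, the other test, no low-count filter, stricter nuclei, kept doublets or marker-count classes, in any sum where these were run. Leaving out single libraries gave 0 to 3 members called in mesenchymal-like nuclei, 0 to 3 in macrophage-like nuclei and 0 to 1 for the difference between both, and 0 to 3 and 0 to 9 pathway genes in mesenchymal-like and macrophage-like nuclei. The upper value was in each case without KO replicate 1. Without that library, a removal also applied after seeing the data to the groups' overlap, the members that did not overlap numbered 12 in all nuclei (53.4% of all genes), 12 in mesenchymal-like (58.3%), 7 in macrophage-like (53.2%) and 4 in T/NK-like nuclei (39%).

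For 41 log2 fold changes of named members, Gpc6 and Cd44, the alternatives gave 512 values. Of these, 491 kept their direction and their side of the threshold, 7 passed it (all without KO replicate 1) and 14 changed sign. With stricter nuclei Fzd8 was at 0.065 and Wnt5a at 0.18 in all nuclei. Over the removals of single libraries, mesenchymal-like values ran from -0.21 to 0.047 for Fzd5, -0.067 to 0.11 for Fzd7, -0.083 to 0.59 for Lgr4, -0.19 to 0.062 for Lrp5, -0.25 to 0.11 for Rnf43, -0.82 to 0.80 for Ror1 and -1.21 to 0.13 for Rspo3. The cause was not tested. The KO minus CO difference in the mesenchymal-like share of member UMIs, 1.41 percentage points, ran from -3.71 to 6.85 over the removals and was 9.13 with stricter nuclei, where the SD was 7.13 in CO and 16.6 in KO.

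With the replicate number as a replicate block, 0 members were called in all nuclei, mesenchymal-like, macrophage-like and T/NK-like nuclei, and Ror1 in mesenchymal-like nuclei turned to 0.081. Replicates numbered 2 deviated oppositely from their group means (correlations of -0.31, -0.28, -0.27 and -0.17 in these sums), while numbers 1 and 3 gave 0.24 to 0.56, so the numbers were not taken as pairs. Libraries of 1094 to 4873.5 median UMIs per nucleus limit what was detectable. Of the members, 26 had from 1 to 199 UMIs and were tested only where the low-count filter allowed, and 5 had 0.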
